A study of Danio rerio with 16 samples.

Results

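The nuclear genes of the respiratory chain were taken as every gene of the deposited table whose symbol begins with ndufa, ndufb, ndufc, ndufs, ndufv, sdha, sdhb, sdhc, sdhd, uqcr, atp5, or cox4 to cox8. The rule found 101 of the 21301 genes. Of these, 88 name structural subunits, with 40 for complex I, 5 for complex II, 8 for complex III, 18 for complex IV and 17 for complex V. A further 11 name assembly factors (7 ndufaf and 4 sdhaf genes) and 2 name inhibitors of ATP synthase. Each gene was placed in a complex by its symbol. That puts ndufa4, ndufa4l, ndufa4l2a and ndufa4l2b in the sums and counts of complex I. Homologues whose symbols the rule does not match, among them cyc1, are not members.

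The data are single-cell RNA sequencing of zebrafish tails, cut behind the last formed somite of embryos at the 10 to 12 somite stage. Each library held the pooled tails of 10 embryos, or of 12 for notum-1. There were 4 libraries in each of 4 groups, namely embryos treated with DMH1 to inhibit BMP signalling, embryos treated with SU5402 to inhibit FGF signalling, notum-1 embryos with Wnt signalling inhibited, and wild type (WT) embryos. DMH1 inhibits receptor kinases for BMP and SU5402 those for FGF, while Notum, released by cells, removes a lipid that Wnt proteins need. The sources used here do not give the strain, doses, times of treatment or the way notum-1 was delivered. The labels do not say whether the pools of a group came from separate clutches, so the p-values measure the spread between these libraries, which may be technical.

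The respiratory chain sits in the inner mitochondrial membrane. Complex I takes electrons from NADH and complex II from succinate, complex III passes them to cytochrome c, complex IV passes them to oxygen, and the proton gradient that complexes I, III and IV build drives ATP synthesis by complex V. The mitochondrial genome encodes core membrane subunits of complexes I, III, IV and V, and the nuclear genome encodes the rest and all of complex II. Nuclear subunits range from the catalytic proteins that hold the flavin, iron-sulphur and nucleotide sites to many small accessory proteins. Muscle is known for a high content of mitochondria, and adaxial cells, which lie beside the notochord, are the first muscle precursors of the zebrafish embryo.

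UMI counts, in which a molecular tag marks each captured transcript 3′ end, were summed per library over all cells or over a cell class of the authors' deposited annotation. Library totals were 12398958 to 76488460 UMIs. Levels are given as CPM, the usual scaling of counts to the library total, here after multiplying that total by edgeR's TMM factor. A 3′ tag counts a transcript once whatever its length, so levels of different genes are compared without a length correction. The TMM factor was 1.06 to 1.14 in DMH1, 1.06 to 1.30 in SU5402, 0.73 to 0.83 in notum-1 and 0.98 to 1.03 in WT, and counts and sums for notum-1 are given on the plain total as well. The highest mitochondrial percent of any deposited cell differed between groups, at 6.96 to 7 in DMH1, 6.99 to 9.99 in SU5402, 2.98 to 3 in notum-1 and 4.53 to 5 in WT, and the median mitochondrial percent per cell was 3.56 to 4.88 in DMH1, 3.62 to 6.55 in SU5402, 1.16 to 1.45 in notum-1 and 1.52 to 2.38 in WT. The fewest genes in any deposited cell also differed, at 1001 to 1016 in DMH1, 801 to 1501 in SU5402, 501 to 503 in notum-1 and 801 to 1202 in WT. Median UMIs per cell were 6870 to 8139, 2424 to 8820, 4152 to 9972 and 3381 to 5637 in the same order. Results were also computed from cells under a common limit of at most 3% mitochondrial UMIs and at least 1500 genes, which left 44 to 4961 cells per library. Libraries are counted in the order of their names in the deposited table (DMH0, DMH2, DMH3 and DMH4; SU1 to SU4; WNT_DJ1, WNT_DJ2, WNT_MG1 and WNT_MG2; DJ1, DJ2, MG1 and MG2 for WT), and only for SU5402 is that order the labels' replicate number. Library pairs shared 4 to 48 cell barcodes, at most 0.514% of the smaller library. As a check of the label, the 4 notum-1 libraries held 251, 997, 376 and 693 CPM of notum1a, the gene of the enzyme, against 2.78, 2.88, 3.13 and 3.87 CPM in WT. The 4 adaxial markers myod1, prdm1a, actc1b and smyhc1 were each highest in the anterior adaxial class, while none of the 3 markers pax2a, lhx1a and osr1 was highest in the class named intermediate mesoderm. Summed markers of the yolk syncytial layer were 5.94 to 12.7, 1.73 to 231, 2.14 to 45.6 and 6.32 to 116 CPM in DMH1, SU5402, notum-1 and WT. Those of germ cells were 3.17 to 5.76, 2.67 to 8.98, 2.45 to 14.9 and 3.38 to 4.63 CPM, and those of red blood cells 33.5 to 51.7, 29.9 to 57.2, 15.3 to 120.1 and 54 to 101 CPM, in the same order. Summed markers of the hatching gland were 0 to 0.0242, 0 to 53.9, 0 to 258 and 0 to 74 CPM in that order, with 258 CPM in the third notum-1 library. The part of all these cells in the results was not tested.

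In WT, over all cells of a library, the 88 subunit genes made up 2.07% ± 0.0778 of all UMIs (SD, n = 4), and members of the same complex differed widely in level. The highest members were uqcrh, which encodes the acidic hinge protein of complex III, at 1114 ± 36.2 CPM, and atp5mc3b, a gene of the membrane ring of ATP synthase, at 1114 ± 86.9 CPM. In complex IV the leading genes were cox8a at 922 ± 46.9 CPM, cox6b2 at 912 ± 25.9 CPM and cox7a2a at 604 ± 61.1 CPM. In complex V, atp5l, of the membrane part, had 743 ± 98.4 CPM and atp5f1e, the epsilon subunit, 743 ± 147 CPM. The leading members placed in complex I by symbol were lower, with ndufa4l at 497 ± 12.3 CPM, ndufab1a (an acyl carrier protein) at 299.7 ± 13.7 CPM and ndufc2 at 294 ± 16.5 CPM. After uqcrh, complex III was led by uqcrb at 358 ± 18.9 CPM and uqcr10 at 257 ± 7.69 CPM. Complex II stood lowest, with sdhc, a membrane anchor, at 118 ± 8.77 CPM, the assembly factor sdhaf4 at 86.6 ± 3.43 CPM and the anchor sdhdb at 69.8 ± 3.15 CPM. At the other end, ndufa9b, cox7a1 and ndufs1, the last a gene of the catalytic core of complex I, had no UMI in any WT library, which allows up to 0.0194 CPM over the 4 libraries (3 UMIs), and ndufa4l2a and ndufa4l2b averaged 0.0709 and 0.0207 CPM. These 5 members did not pass the filter on low counts and were not tested, which left 96. The floor bounds counted UMIs and not expression, since how the annotation behind the counts covers these transcripts is not given in the sources used here.

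Across the 21 cell classes with at least 30 cells in every WT library, all 5 complexes were highest in adaxial cells. Summed over the 88 subunit genes, the level was 36612 ± 1912 CPM in the anterior adaxial class and 30385 ± 1472 CPM in the posterior adaxial class (SD, n = 4 libraries). The next class, NMP, had 22379 ± 1237 CPM, and the ranges of the libraries in these 3 classes did not overlap. From NMP down, each class overlapped the one after it, through PSM (presomitic mesoderm) at 22299 ± 935 CPM, posterior neuronal at 21567 ± 1009 CPM and epidermis 1 at 18896 ± 656 CPM to the lowest, the lateral plate mesoderm (hand2) class, at 18272 ± 381 CPM. NMP and PZ stand as the deposited annotation has them, with no longer form given.

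The ratio of the highest to the lowest class was 1.85 for complex I, 2.41 for complex II, 2.07 for complex III, 1.94 for complex IV and 2.21 for complex V. Complex II was thus the steepest, with 607, 623, 603 and 609 CPM in the anterior adaxial class of the 4 libraries. Behind the adaxial classes the complexes took different orders. Complexes I, III and IV were next highest in the anterior notochord, with 5658 ± 349.9, 2924 ± 105 and 6247 ± 299 CPM. For complex I, NMP was level with it and overlapped it, at 5651 ± 262 CPM. For complex V the anterior notochord lay low, at 6867 ± 133 CPM against 8102 ± 552 CPM in PSM, and the ranges of those 2 classes did not overlap. The lateral plate mesoderm (pax2) and differentiated neuronal classes followed the adaxial classes in complex II, at 365 ± 31.9 and 355 ± 28.2 CPM. The 11 assembly factors had a slightly flatter profile, with a ratio of 1.78 between the highest and the lowest class. Their level was 415 ± 26.1 CPM in anterior adaxial cells, overlapping the anterior notochord at 382 ± 24.4 CPM. The 13 genes of the mitochondrial genome were also highest in anterior adaxial cells, at 32004 ± 4672 CPM, but their spread between libraries was wide enough that each class overlapped the next.

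**Figure D1:**
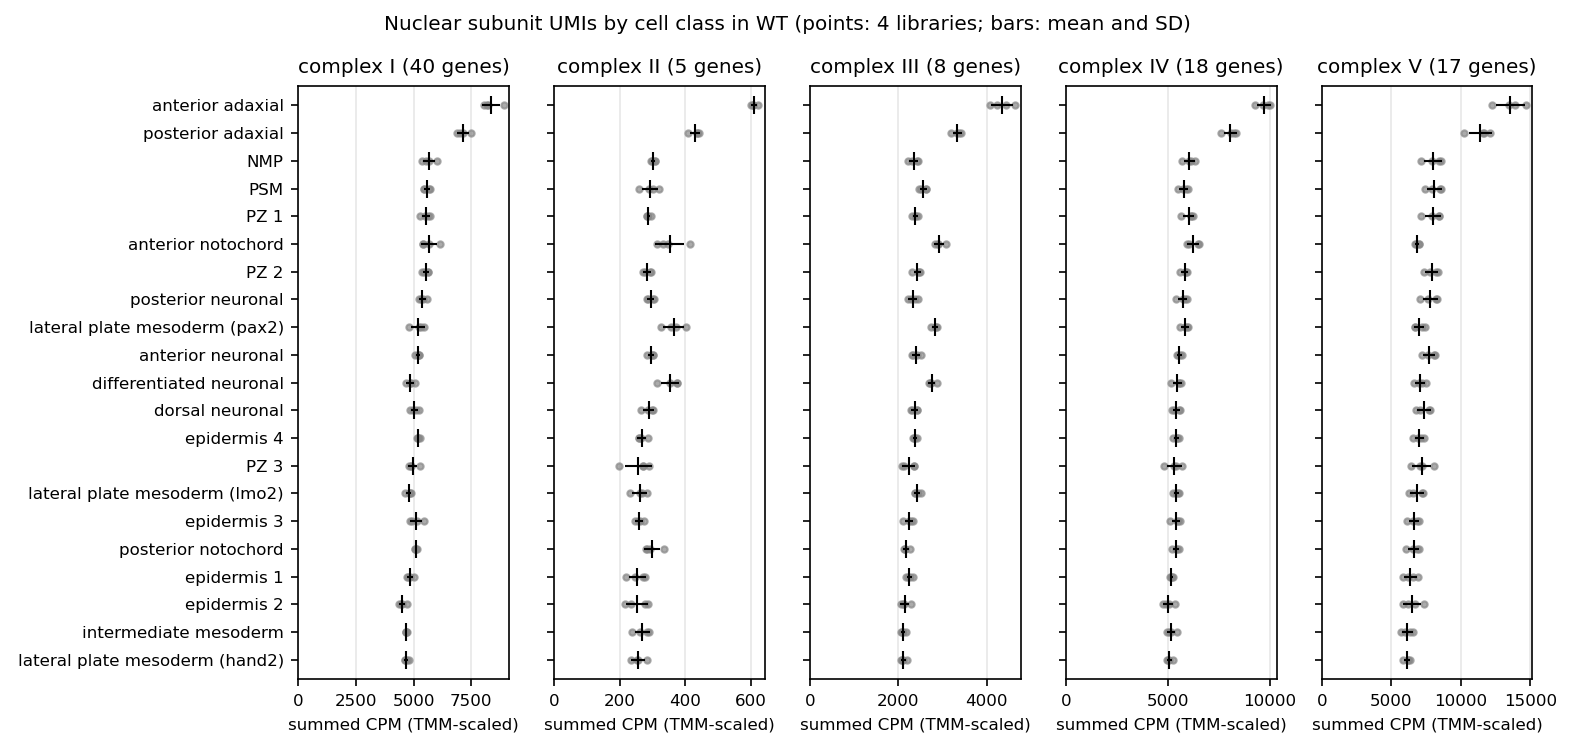
Summed TMM-scaled CPM (x axis) of the nuclear subunit genes of each complex in 21 cell classes (y axis, ordered by the sum over all subunits) in WT. Grey points are the 4 libraries and black bars the mean and SD. The means of the anterior and posterior adaxial classes lie to the right of those of all other classes in every panel. For complex II the lowest posterior adaxial point (409 CPM) lies left of the highest anterior notochord point (414.5 CPM).

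The difference between adaxial cells and PSM was seen gene by gene. Between the mean of the 2 adaxial classes and PSM in the same 4 WT libraries, 80 of 89 members tested were higher in adaxial cells and 0 were lower, by edgeR's quasi-likelihood test with library as a block and adjusted p under 0.05. Of all 10069 genes tested there, 16.2% were higher and 21.0% lower. The classes had been defined by the authors from the same cells, so the test speaks only to how repeatable the difference was between libraries. The members' median log2 fold change was 0.54, and by complex it was 0.50 for I, 0.79 for II, 0.65 for III, 0.68 for IV and 0.56 for V, against -0.03 over all genes tested. atp5mc1, another gene of the membrane ring, rose most among members of at least 10 CPM, with 1379.9, 1178, 1379.6 and 1548 CPM in adaxial cells of the 4 libraries, against 582, 524, 625 and 625 CPM in PSM (log2 fold change 1.19 with SE 0.04, edgeR adjusted p = 1.76e-70). The succinate dehydrogenase anchor sdhdb had 136, 140.1, 141 and 148 CPM in adaxial cells, against 65.9, 66.7, 68.3 and 71.9 CPM in PSM (log2 fold change 1.01 with SE 0.07, edgeR adjusted p = 6.32e-32). cox5aa, a structural subunit of complex IV, had 812, 867, 789 and 815 CPM, against 418, 437, 449 and 413 CPM in PSM (log2 fold change 0.93 with SE 0.04, edgeR adjusted p = 7.3e-61). For all 3 genes the lowest adaxial value lay above the highest PSM value, as the rule for naming them required. In cells under the common limit 47 members passed, where 3.57% of all genes were higher and 7.21% lower.

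The 9 members that did not pass in this comparison were 4 of the 9 assembly factors tested (ndufaf3, ndufaf4, ndufaf5 and ndufaf6), the thinly detected sdhda and cox6a2, and 3 abundant genes. Those were ndufa4l, with a log2 fold change of 0.00, the ATP synthase inhibitor atp5if1a, with 0.05, and the ring gene atp5mc3a, with 0.04. Among other lists, 15 of 18 genes of the tricarboxylic acid cycle and 7 of 16 genes of glycolysis rose in adaxial cells with 0 and 0 lower, 31 of 74 genes of the mitochondrial ribosome rose and 2 fell, and 82 of 83 genes of the cytosolic ribosome fell.

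The other 3 class comparisons in WT called fewer members. In PSM against PZ 1, 11 members were higher in PSM and 8 lower of 89 tested, against 13.7% higher and 14.7% lower of all genes, which is close to the members' shares. The complex I assembly factor ndufaf1 had 33.3, 29.2, 39.8 and 35.8 CPM in PSM, against 21.7, 19.9, 25.6 and 25 CPM in PZ 1 (log2 fold change 0.59 with SE 0.11, edgeR adjusted p = 4.37e-06). atp5if1b and ndufaf3 were the next largest rises, with log2 fold changes of 0.32 and 0.27, and the complex I gene ndufa7 and cox5aa fell by 0.34 and 0.25 on the log2 scale. Without the library block, 5 members passed in place of 19, and without the second WT library 12 did. No shares of all genes are at hand for these fits. atp5if1b did not pass without the second WT library (log2 fold change 0.18, edgeR adjusted p = 0.104), ndufa7 without the first WT library (log2 fold change -0.24, edgeR adjusted p = 0.0587), and ndufaf3 without the first WT library (log2 fold change 0.27, edgeR adjusted p = 0.0652) or without the second WT library (log2 fold change 0.25, edgeR adjusted p = 0.119). The common limit on cells left 6 members that passed, beside 8.94% of all genes higher and 7.27% lower. There atp5if1b had 0.17 (edgeR adjusted p = 0.407) and ndufaf3 0.07 (edgeR adjusted p = 0.855).

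In posterior neuronal cells against NMP, 3 of 89 members were higher and 11 lower, against 11.0% and 8.94% of all genes. ndufaf1 again rose, with 35.6, 32.6, 36.8 and 33.8 CPM in posterior neuronal cells, against 25.5, 25.9, 27.6 and 22.9 CPM in NMP (log2 fold change 0.43 with SE 0.12, edgeR adjusted p = 0.00273), and ndufa7, ndufb8 and cox5aa fell by 0.33, 0.16 and 0.14 on the log2 scale. Without the library block 3 members passed and without the fourth WT library 9, with no shares of all genes at hand for these fits. ndufb8 did not pass without any 1 of 3 libraries (the first WT, the third WT, the fourth WT), with log2 fold changes of -0.15 to -0.14 and edgeR adjusted p of 0.0528 to 0.0898. With cells under the common limit 2 members passed, beside 7.08% of all genes higher and 4.41% lower. There ndufaf1 had 0.45 (edgeR adjusted p = 0.0949), ndufb8 -0.12 (edgeR adjusted p = 0.47) and cox5aa -0.08 (edgeR adjusted p = 0.593). In the anterior against the posterior notochord, 34 members were higher and 8 lower, against 23.1% and 19.0% of all genes. By complex, 13 of 35 subunit genes of I, 2 of 5 of II, 5 of 8 of III, 8 of 13 of IV and 4 of 17 of V rose. In the same order 3, 0, 0, 1 and 2 fell. The inhibitor atp5if1b had 119, 123, 121 and 103 CPM in the anterior notochord, against 52.4, 47, 59.7 and 80.2 CPM in the posterior (log2 fold change 1.01 with SE 0.12, edgeR adjusted p = 5.23e-14). sdhaf4 rose with a log2 fold change of 0.65 and the complex III gene uqcr10 with 0.62, while the assembly factor ndufaf4 fell by 0.87 and atp5mc3b by 0.27 on the log2 scale.

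A few members had a class pattern of their own. cox6a2, whose mammalian counterpart is the form of the COX6A subunit found in heart and skeletal muscle, had 20.9, 28.6, 6.76 and 11.3 CPM in the anterior notochord of the 4 WT libraries. Every other class averaged below that range, the highest being the posterior notochord at 0.823 ± 1.21 CPM (log2 fold change 4.07 with SE 0.54, edgeR adjusted p = 2.29e-11 for the anterior against the posterior notochord). cox6a2 passed the filter on low counts through the anterior notochord, so that p-value rests on the class where the gene was high. The anterior adaxial class had 0.512 ± 0.602 CPM. The widely expressed form cox6a1 had 449.9 ± 19.4 CPM in anterior adaxial cells and 244 ± 27.5 CPM in its lowest class, epidermis 2. The scarce complex IV forms cox4i2 and cox8b were highest outside the adaxial classes, cox4i2 at 5.99 ± 2.54 CPM in intermediate mesoderm and cox8b at 6.24 ± 0.999 CPM in lateral plate mesoderm (lmo2). The 2 inhibitors of ATP synthase also parted. atp5if1a stood between 321 ± 22.8 CPM in the anterior notochord and 581 ± 80.4 CPM in anterior adaxial cells. atp5if1b was highest in differentiated neuronal cells, with 278, 305, 338 and 324 CPM in the 4 libraries, then in epidermis 1 at 207 ± 20.7 CPM and epidermis 4 at 195 ± 12.3 CPM, and lowest in PZ 2 at 54.9 ± 2.99 CPM.

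The next count has no share of all genes beside it, since none was computed. Of the 87 members that reached 10 CPM in their highest class, 76 were highest in the anterior adaxial class. The steepest of these were atp5mc1, at 1623 ± 195 CPM, or 3.01 times the median class, the complex I accessory gene ndufb6, at 327 ± 33.6 CPM and 2.53 times, sdhdb at 170.0 ± 9.64 CPM and 2.47 times, and ndufv1, which carries the flavin of complex I, at 72.5 ± 18 CPM and 2.28 times. ndufb6 stood out from its complex in the step between the adaxial classes, with 174 ± 22 CPM in the posterior one.

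Most members were lower in DMH1 and in SU5402 than in WT. Over all cells, 54 of 96 members tested fell in DMH1 and 4 rose, against 20.3% of all genes lower and 22.1% higher. In SU5402, 72 fell and 4 rose, against 19.6% lower and 23.0% higher. The members' median log2 fold change was -0.60 in DMH1 and -0.91 in SU5402, beside 0.06 and 0.11 over all 16399 genes tested. Both comparisons use the same WT libraries. In values summed over all cells, fewer cells of a type and less RNA per cell cannot be told apart. Of complex I subunit genes, 25 of 36 fell in DMH1 and 31 in SU5402. The counts were 3 and 4 of 5 for complex II, 5 and 6 of 8 for complex III, 7 and 9 of 17 for complex IV, and 10 and 15 of 17 for complex V. Fewer assembly factors moved, with 2 and 5 of 11 lower, and both inhibitors of ATP synthase fell in each group.

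Summed by complex, complex I had 3188, 2915, 2715 and 3093 CPM in the DMH1 libraries, 2122, 2170.4, 2613 and 3134 CPM in the SU5402 libraries and 4946, 4952, 5353 and 5330.0 CPM in the WT libraries. Complex V had 4752, 4682, 4324 and 4381 CPM in DMH1, 3213, 3264, 4530.5 and 4774 in SU5402 and 7024, 6566, 7936 and 7794 CPM in WT. Every DMH1 and SU5402 library lay below every WT library in all 5 complexes, and in SU5402 the first and second libraries lay below the third and the fourth on the TMM scale. On the plain total that order held for complexes IV and V but not for I to III. There complex I had 2691, 2815, 2775 and 3472 CPM in the SU5402 libraries. The log2 ratio of the summed levels to WT was -0.79, -0.70, -0.71, -0.63 and -0.69 for complexes I to V in DMH1, and -1.05, -0.94, -0.97, -0.82 and -0.91 in SU5402. On the plain total these ratios were smaller, from -0.65 to -0.49 in DMH1 and from -0.82 to -0.59 in SU5402, and the libraries still did not overlap. The first and second SU5402 libraries had the fewest UMIs, the largest TMM factors and, in the first, the highest mitochondrial percent. Without both of them 62 members fell and 4 rose, with no share of all genes at hand for that fit.

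**Figure D2:**
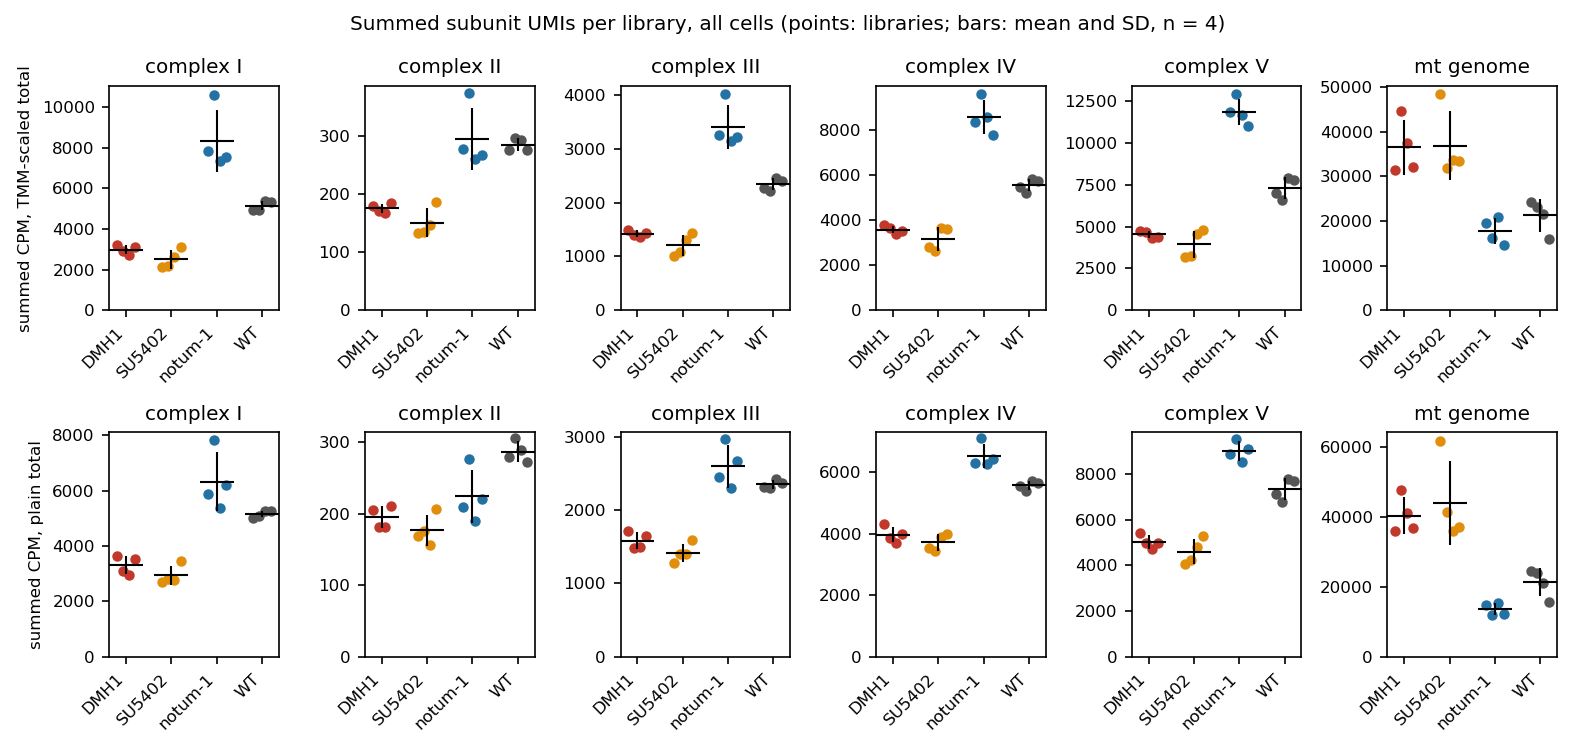
Summed CPM (y axis) of the nuclear subunit genes of each complex and of the 13 genes of the mitochondrial genome (mt genome) in DMH1, SU5402, notum-1 and WT, as CPM of the TMM-scaled total (top) and of the plain total (bottom). Points are libraries and bars the mean and SD (n = 4). DMH1 and SU5402 libraries lie below WT in every nuclear panel and above it in the mt genome panels, while notum-1 lies above WT in the top row for complexes I, III, IV and V by a wider margin than in the bottom row.

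The steepest falls were in small accessory subunits. cox7a2a, of complex IV, had 206, 209, 167 and 182 CPM in DMH1, 209.9, 204, 196 and 181 in SU5402 and 598, 527, 614 and 676 CPM in WT. Its log2 fold change was -1.66 in DMH1 (SE 0.11, edgeR adjusted p = 1.86e-07) and -1.61 in SU5402 (SE 0.11, edgeR adjusted p = 1.58e-07), and the 8 treated values lay far below the 4 WT values. cox7c, another small subunit of complex IV, had 168, 152, 143 and 168 CPM in DMH1, against 503, 376, 597 and 614 CPM in WT (log2 fold change -1.73 with SE 0.18, edgeR adjusted p = 3.56e-06). The complex I gene ndufb11 had 10.3, 10.7, 11.3 and 12.3 CPM in DMH1, against 44.3, 29.8, 45.1 and 34.2 CPM in WT (log2 fold change -1.78 with SE 0.32, edgeR adjusted p = 0.000493). atp5l, of the membrane part of ATP synthase, had 288, 270.0, 238 and 256 CPM in DMH1, 229, 216, 312 and 267 in SU5402 and 718, 619, 787 and 848 CPM in WT, with log2 fold changes of -1.50 and -1.54 (edgeR adjusted p = 7.87e-07 and 5.27e-07). For each of these genes the treated and WT libraries were apart, as the rule for naming them required.

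In SU5402 the complex I gene ndufb5 had 52.8, 51.6, 63.1 and 80.6 CPM, against 183, 202, 188 and 164 CPM in WT (log2 fold change -1.57 with SE 0.19, edgeR adjusted p = 9.97e-06). atp5pf, of the stalk that joins the parts of ATP synthase, had 115, 119, 161 and 169 CPM in SU5402, against 394, 371, 409.6 and 471 CPM in WT (log2 fold change -1.55 with SE 0.16, edgeR adjusted p = 2.33e-06). Of the most abundant members, uqcrh had 742, 703, 692 and 688 CPM in DMH1, 422, 467, 657 and 678 in SU5402 and 1095, 1072, 1149 and 1138 CPM in WT, with log2 fold changes of -0.66 and -1.0. cox8a gave -0.62 and -0.92. atp5mc3b gave -0.32 in DMH1, which did not pass (edgeR adjusted p = 0.267), and -0.76 in SU5402, which did (edgeR adjusted p = 0.0142) but not without the first and second SU5402 libraries (-0.31, edgeR adjusted p = 0.114).

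In complex I, genes of the catalytic core had smaller median changes than accessory genes. This split and the one of complex V given below were made after the values were seen and were not tested. Of the 7 genes of the nuclear catalytic core of complex I, of which 6 were tested, 2 fell in DMH1 and 3 in SU5402, with median log2 fold changes of -0.42 and -0.61. Of the 33 accessory genes, 30 were tested, and 23 fell in DMH1 and 28 in SU5402, with medians of -0.86 and -1.05. Of the 3 genes of the alpha, beta and gamma subunits of ATP synthase, 0 fell in DMH1 and 2 in SU5402. Of the 14 other complex V genes, those of the delta and epsilon subunits included, 10 and 13 fell. sdha, which encodes the flavoprotein of complex II, had 32.9, 34.3, 33.5 and 33.6 CPM in DMH1, 38.9, 39.7, 37.9 and 35.3 in SU5402 and 33.8, 33.8, 36 and 34.8 CPM in WT, with log2 fold changes of -0.04 and 0.13 that did not pass (edgeR adjusted p = 0.676 and 0.203). The DMH1 and WT ranges overlapped, as did those of SU5402 and WT. sdhb, which encodes the iron-sulphur subunit, had -0.25 in DMH1, which did not pass (edgeR adjusted p = 0.308), and -0.63 in SU5402, which did (edgeR adjusted p = 0.0148). The anchors of the same complex fell, sdhc with -1.11 and -1.45 and sdhdb with -0.99 and -1.24. ndufv1 gave 0.09 and 0.16 and atp5fa1, the alpha subunit, 0.33 and -0.07, none of which passed.

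**Figure D3:**
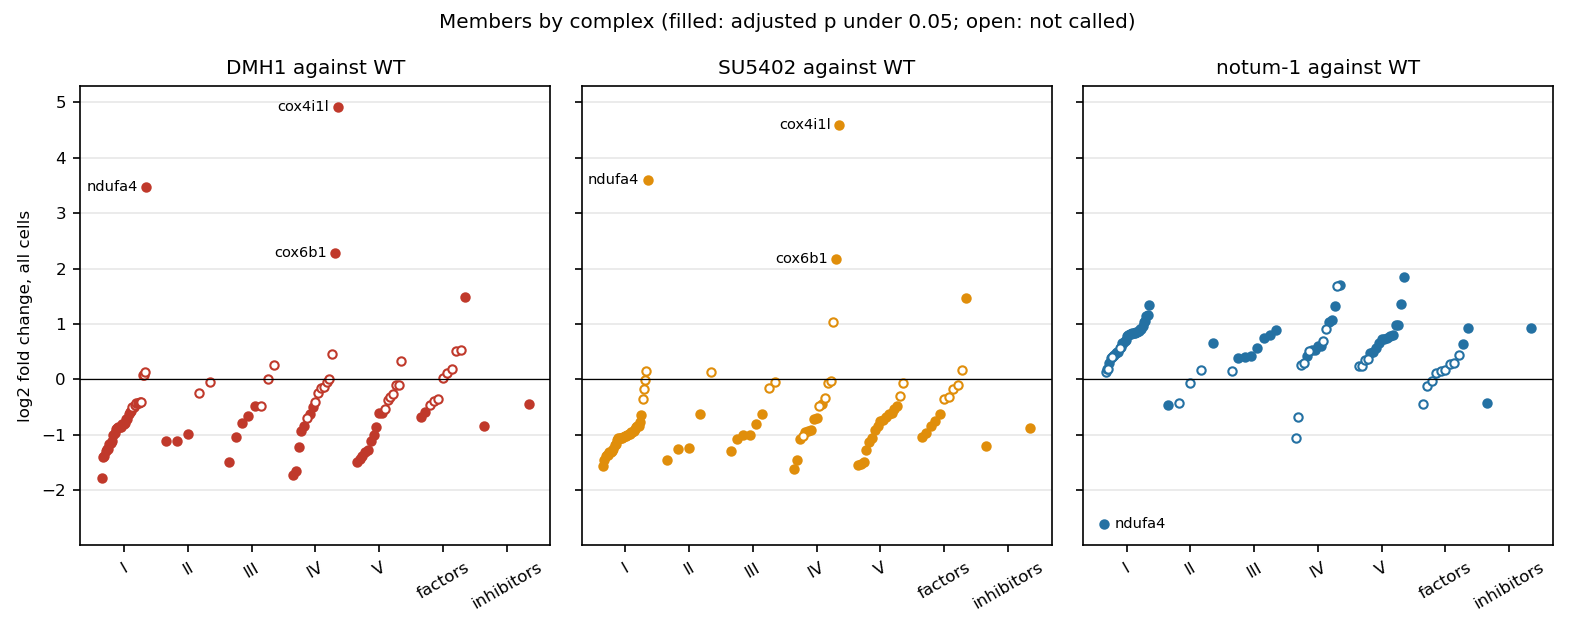
Log2 fold change (y axis) of each tested member over all cells, by complex of the subunit genes, assembly factors and ATP synthase inhibitors (x axis), for DMH1, SU5402 and notum-1 against WT. Filled points have an adjusted p under 0.05 and genes beyond 2 are named. Most points lie below 0 in DMH1 and SU5402 and above 0 in notum-1, with ndufa4, cox4i1l and cox6b1 far above the rest in DMH1 and SU5402.

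The members that rose in DMH1 were ndufa4, cox4i1l, cox6b1 and the complex II assembly factor sdhaf1, and those that rose in SU5402, set against the same WT libraries, were again these 4. The first 3 are scarce forms of subunits whose abundant form is ndufa4l, cox4i1 and cox6b2 in these libraries. NDUFA4 was first described with complex I, and in mammals its product is now counted with complex IV. The complex I sums and counts given here still include the ndufa4 genes. ndufa4 had 7.22, 6.16, 12.6 and 15 CPM in DMH1, 9.98, 9.86, 10.4 and 13.9 in SU5402 and 0.661, 1.69, 0.364 and 0.88 CPM in WT. Its log2 fold change was 3.48 in DMH1 (SE 0.45, edgeR adjusted p = 2.7e-05) and 3.59 in SU5402 (SE 0.45, edgeR adjusted p = 1.74e-05), and every treated library was above every WT library. ndufa4l had 374 ± 18 CPM in DMH1, 317 ± 76.3 in SU5402 and 497 ± 12.3 CPM in WT (SD, n = 4), a log2 fold change of -0.41 that did not pass in DMH1 (edgeR adjusted p = 0.0566) and of -0.65 that did in SU5402 (edgeR adjusted p = 0.00503) but not without the first and second SU5402 libraries (edgeR adjusted p = 0.0665).

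cox4i1l had 2.17, 2.43, 5.08 and 6.19 CPM in DMH1, 2.92, 3.08, 2.94 and 3.71 in SU5402 and 0, 0.154, 0.146 and 0.23 CPM in WT, where a CPM of that size is a handful of UMIs per library. Being so scarce in WT, cox4i1l passed the filter on low counts through the DMH1 and SU5402 libraries. Its p-values and its place among the members that rose therefore rest on the groups where it was high. Its log2 fold changes were 4.92 and 4.59 (edgeR adjusted p = 5.09e-06 and 7.54e-06), while cox4i1, at 541 ± 44.3 CPM in WT, gave 0.00 and -0.47, which did not pass, although in SU5402 it passed without the fourth SU5402 library (log2 fold change -0.67, edgeR adjusted p = 0.0265). cox6b1 had 9.25, 8.92, 15.2 and 18.8 CPM in DMH1, 6.87, 8.35, 13.8 and 18.7 in SU5402 and 2.18, 3.48, 2.43 and 2.6 CPM in WT, with log2 fold changes of 2.28 and 2.17 (edgeR adjusted p = 0.00057 and 0.000744). cox6b2 had 832 ± 53.6 CPM in DMH1, 719.8 ± 184 in SU5402 and 912 ± 25.9 CPM in WT, and neither difference passed, although in SU5402 it passed without the third SU5402 library (log2 fold change -0.48, edgeR adjusted p = 0.0154) or without the fourth SU5402 library (log2 fold change -0.41, edgeR adjusted p = 0.0435). In DMH1 the third and the fourth libraries lay above the first and second in all 3 scarce forms. sdhaf1, singled out after its values were seen, was scarce, at 0.716 ± 0.133 CPM in DMH1, 0.738 ± 0.283 in SU5402 and 0.253 ± 0.107 CPM in WT. How reads that match both forms of a pair were counted is not given in the sources used here, and the levels of such pairs are uncertain. The scarce forms remained far below the abundant ones in every library.

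By class, the mean of ndufa4 was highest in anterior adaxial cells in both DMH1 and SU5402, at 33.2 ± 19.2 CPM in DMH1, 28.5 ± 7.05 in SU5402 and 1.73 ± 1.7 CPM in WT, scaled within that class. cox6b1 was also high there, with 35.6 ± 14.1 CPM in DMH1, 33.6 ± 13 in SU5402 and 2.94 ± 1.19 CPM in WT. In lateral plate mesoderm (pax2) it had 34.6 ± 18.4, 21.2 ± 13.9 and 10.2 ± 8.21 CPM in the same order. In mucus producing cells it had 63.5 CPM in DMH1 and 57.2 in SU5402 (1 library each), against 16.7 ± 1.44 CPM in WT (2 libraries). cox4i1l had 13.5 ± 7.59 CPM in DMH1 and 11.5 ± 3.27 in SU5402 in epidermis 3, against 0.43 ± 0.349 CPM in WT, and in PZ 1 it had 0.475 ± 0.267 CPM in DMH1 and 0.972 ± 0.889 in SU5402, against 0.0637 ± 0.127 CPM in WT. Its DMH1 mean was higher than in epidermis 3 in EVL, at 16.9 ± 11.5 CPM, and in lateral plate mesoderm (pax2), at 14.0 ± 9.41 CPM. In SU5402 these classes had 11.3 ± 9.82 CPM (3 libraries) and 4.96 ± 3.5 CPM.

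**Figure D4:**
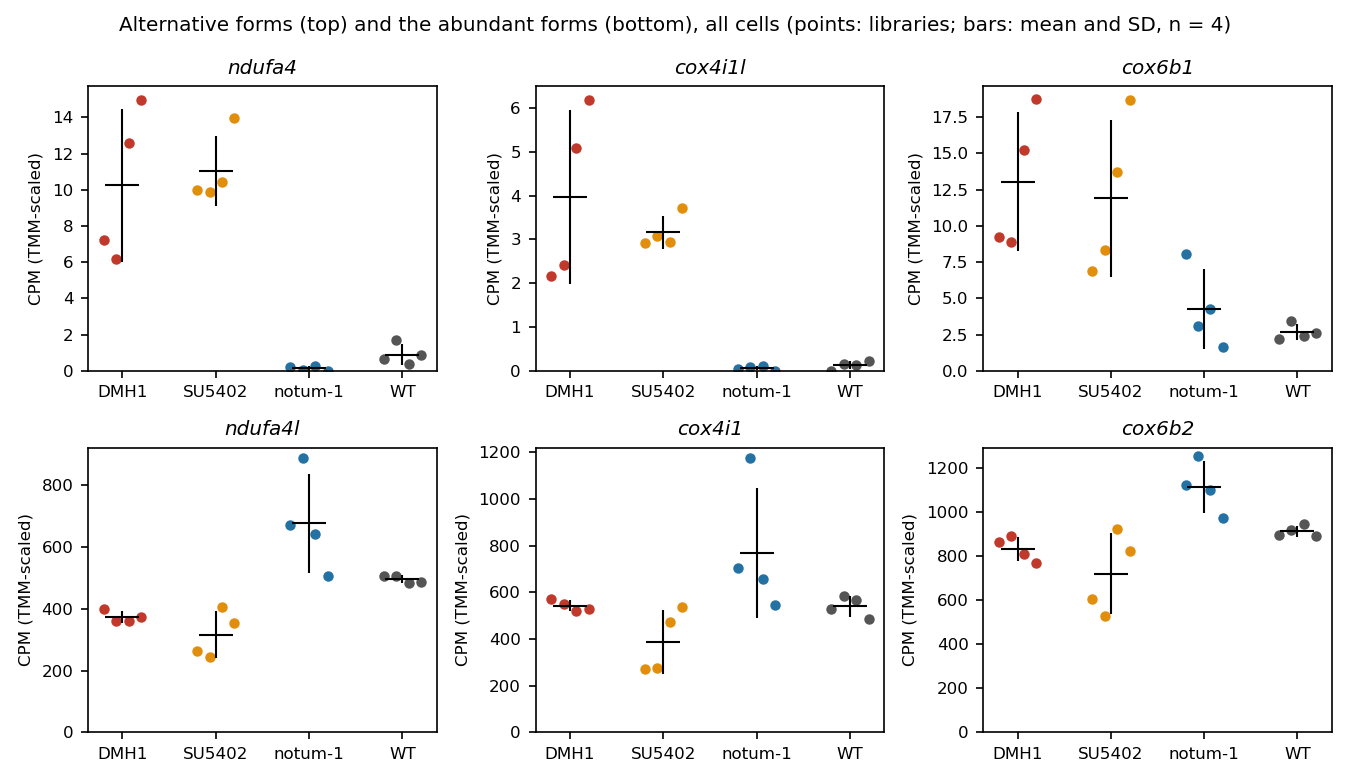
CPM per library (y axis, TMM-scaled) of the scarce forms ndufa4, cox4i1l and cox6b1 (top) and of the abundant forms ndufa4l, cox4i1 and cox6b2 (bottom) in DMH1, SU5402, notum-1 and WT. Points are libraries and bars the mean and SD (n = 4), and the y axes differ between panels. In the top row every DMH1 and SU5402 library lies above every WT library.

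Most other forms did not pass. cox7a2l, cox8b, cox4i2 and cox6a2 had log2 fold changes of -0.25, -0.17, 0.46 and -0.71 in DMH1, none of which passed. In SU5402 they had -0.44, -0.03, -0.07 and -1.03, and cox7a2l passed (edgeR adjusted p = 0.0438) but not without any 1 of 6 libraries (the first SU5402, the second SU5402, the first WT, the second WT, the third WT, the fourth WT), with log2 fold changes of -0.46 to -0.33 and edgeR adjusted p of 0.0593 to 0.0898. cox6a1 had -0.41 in DMH1, which did not pass, and -0.71 in SU5402, which did (edgeR adjusted p = 0.0148) but not without the first and second SU5402 libraries (edgeR adjusted p = 0.159). Of the inhibitors, atp5if1a gave -0.85 and -1.20 and atp5if1b -0.44 and -0.89, all of which passed. In DMH1 atp5if1b did not pass without any 1 of 5 libraries (the first DMH1, the second DMH1, the third DMH1, the third WT, the fourth WT), with log2 fold changes of -0.45 to -0.41 and edgeR adjusted p of 0.0506 to 0.0725. On the plain total atp5if1b in DMH1 had -0.30 (edgeR adjusted p = 0.0859) and cox7a2l in SU5402 -0.23 (edgeR adjusted p = 0.175).

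In notum-1 most members were higher than in WT on the TMM scale. Over all cells, 62 of 96 members rose and 3 fell, against 20.9% of all genes higher and 17.1% lower, and the median log2 fold change was 0.59 beside 0.03 over all genes. The size of this difference depended on the scaling. On the plain total, where the median of all genes was -0.37, 28 members rose and 9 fell, against 8.65% of all genes higher and 37.3% lower. Cytosolic ribosomal genes had a summed log2 ratio of 0.39 on the plain total and 0.79 on the TMM scale, and their part in the scaling was not tested. By complex, 29 of 36 subunit genes of complex I, 1 of 5 of complex II, 7 of 8 of complex III, 9 of 17 of complex IV and 13 of 17 of complex V rose on the TMM scale. On the plain total these counts were 15, 0, 2, 3 and 6, and 3 of the 5 complex II genes fell.

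Complex I summed to 7815, 10612, 7348 and 7519.9 CPM in the notum-1 libraries, against 4946, 4952, 5353 and 5330.0 CPM in the WT libraries, and on the plain total to 5872, 7845, 5363 and 6221 CPM in notum-1, against 5017, 5106, 5256 and 5272 CPM in WT. The second notum-1 library was the highest on both scales, and notum-1 and WT did not overlap on either. Complex II differed from the other complexes in that its ranges overlapped, with 278, 374, 260.1 and 267 CPM in notum-1, against 275, 296, 293 and 275 CPM in WT. Its log2 ratio was 0.03 on the TMM scale and -0.37 on the plain total, so that its direction turned with the scaling. For complexes I, III, IV and V the ratios were 0.68, 0.54, 0.62 and 0.70 on the TMM scale and 0.28, 0.14, 0.22 and 0.30 on the plain total, where complex III overlapped WT.

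atp5mea, of the membrane part of ATP synthase, rose most, with 65.8, 21.2, 56.7 and 69.4 CPM in notum-1, against 15.9, 9.95, 19 and 14 CPM in WT (log2 fold change 1.86 with SE 0.44, edgeR adjusted p = 0.00477), the second library being the lowest of the 4. atp5f1e had 1920.5, 1544, 2104 and 2066 CPM in notum-1, against 732, 560.3, 759.6 and 919 CPM in WT (log2 fold change 1.36 with SE 0.18, edgeR adjusted p = 4.79e-05). The complex I accessory gene ndufb9 had 219, 474, 194 and 238 CPM, against 100.3, 129, 111 and 104 CPM in WT (log2 fold change 1.34 with SE 0.24, edgeR adjusted p = 0.000685), and cox6a1 had 680.2, 1084, 646 and 476 CPM, against 275, 283, 295 and 303 CPM in WT (log2 fold change 1.32 with SE 0.22, edgeR adjusted p = 0.000357). In all 4 genes the notum-1 and WT libraries were apart, as the rule for naming them required. On the plain total their log2 fold changes were 1.48, 0.97, 0.94 and 0.91, all of which passed. cox6a2 rose as well, from a low level, with 1.19, 0.391, 1.94 and 3.98 CPM in notum-1, against 0.633, 0.96, 0.267 and 0.344 CPM in WT (log2 fold change 1.71 with SE 0.56, edgeR adjusted p = 0.025), and these ranges overlapped. It did not pass on the plain total (log2 fold change 1.34, edgeR adjusted p = 0.0688) or without any 1 of 4 libraries (the fourth notum-1, the first WT, the third WT, the fourth WT), with log2 fold changes of 1.05 to 1.73 and edgeR adjusted p of 0.0551 to 0.127.

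The 3 members that fell in notum-1 were ndufa4, sdhc and atp5if1b. ndufa4 had 0.192, 0.0782, 0.285 and 0 CPM in notum-1, against 0.661, 1.69, 0.364 and 0.88 CPM in WT (log2 fold change -2.62 with SE 0.59, edgeR adjusted p = 0.003). sdhc had 86.5, 93.3, 87.4 and 76.5 CPM in notum-1, against 118, 129.5, 116 and 108 CPM in WT (log2 fold change -0.46 with SE 0.15, edgeR adjusted p = 0.0237), and atp5if1b had 75.5, 84.6, 66.1 and 46.4 CPM, against 96.9, 86.5, 93.5 and 90.5 CPM in WT (log2 fold change -0.43 with SE 0.15, edgeR adjusted p = 0.0353). sdhc did not pass without the fourth notum-1 library (log2 fold change -0.40, edgeR adjusted p = 0.0649) or without the second WT library (log2 fold change -0.41, edgeR adjusted p = 0.0694), and atp5if1b did not pass without any 1 of 4 libraries (the fourth notum-1, the second WT, the third WT, the fourth WT), with log2 fold changes of -0.46 to -0.28 and edgeR adjusted p of 0.0527 to 0.0952. The other inhibitor, atp5if1a, rose, with 853, 940.0, 700.0 and 755 CPM in notum-1, against 394, 386, 430.1 and 504 CPM in WT (log2 fold change 0.92 with SE 0.18, edgeR adjusted p = 0.000989). Scaled by the plain total, ndufa4, sdhc, atp5if1b and atp5if1a had log2 fold changes of -3.04, -0.86, -0.84 and 0.52, all of which passed. With cells under the common limit, atp5if1b had -0.34 (edgeR adjusted p = 0.166) and cox6a2 1.73 (edgeR adjusted p = 0.125). cox4i1l and cox6b1 gave -1.06 and 0.69, which did not pass. cox4i1 and cox6b2 gave 0.51 and 0.29, which did not pass either. On the TMM scale ndufa4l, cox7a2a, cox7a2l, cox8a and uqcrh rose with 0.45, 0.52, 0.60, 0.42 and 0.43, and on the plain total they had 0.04, 0.13, 0.20, 0.01 and 0.03, none of which passed.

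In all deposited cells the genes of the mitochondrial genome were higher in DMH1 and SU5402, where most nuclear members were lower, but most of this difference was not seen under the common limit on cells. That limit keeps cells of at most 3% mitochondrial UMIs, so it selects on the compared quantity itself. It therefore cannot show whether the difference holds. Of the 13 genes of the mitochondrial genome, 9 rose in DMH1 and 12 in SU5402 and none fell, with medians of 0.59 and 0.77. In notum-1 3 rose and none fell on the TMM scale, with a median of -0.12, while on the plain total 2 rose and 6 fell, with a median of -0.53. The ratio of nuclear subunit UMIs to mitochondrial-genome UMIs, which no scaling touches, was 0.356 ± 0.0643 in DMH1, 0.31 ± 0.0902 in SU5402, 1.87 ± 0.388 in notum-1 and 1.01 ± 0.247 in WT (SD, n = 4). Its ranges were 0.286 to 0.426, 0.191 to 0.394, 1.49 to 2.33 and 0.825 to 1.35, so that no treated range overlapped WT. The highest mitochondrial percent of the deposited cells was highest in DMH1 and SU5402 and lowest in notum-1. Under the common limit 3 of the 13 genes rose and 1 fell in DMH1, with a median of 0.07, and 2 rose and 1 fell in SU5402, with a median of 0.04. In notum-1 3 rose and 0 fell by edgeR's test, with a median of -0.04. The ratio, on which the limit also acts, was then 0.512 ± 0.05 in DMH1, 0.551 ± 0.0823 in SU5402, 1.83 ± 0.386 in notum-1 and 1.04 ± 0.191 in WT. The ranges were 0.46 to 0.566, 0.479 to 0.659, 1.46 to 2.34 and 0.905 to 1.31, and still no treated range overlapped WT. Of the 93 nuclear members tested under this limit, 57 fell and 4 rose in DMH1 (19.7% and 20.5% of all genes). Likewise 63 fell and 3 rose in SU5402 (16.7% and 18.7% of all genes), and 2 fell and 52 rose in notum-1 (11.6% and 15.9% of all genes).

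Of all genes tested, 20.3% fell and 22.1% rose in DMH1, 19.6% and 23.0% in SU5402, and 17.1% and 20.9% in notum-1. On the plain total these shares were 14.2% and 28.4%, 12.2% and 32.1%, and 37.3% and 8.65%, in the same order. Counts for other lists are to be read beside these shares. The 74 genes of the mitochondrial ribosome, which translates the mitochondrial genome, had the following counts. In DMH1 40 fell and 1 rose, in SU5402 58 fell and 0 rose, and in notum-1 0 fell and 41 rose on the TMM scale, against 12 and 11 on the plain total. Of 22 tested genes of mitochondrial protein import, 14 fell in DMH1, 17 with SU5402 and 1 in notum-1, and 1, 0 and 6 rose, while on the plain total 2 rose and 7 fell in notum-1. Of 19 genes of the tricarboxylic acid cycle, which feeds electrons to the chain, 1 rose and 7 fell in DMH1, 4 and 4 in SU5402, and 4 and 4 in notum-1 (1 and 10 on the plain total). Of 22 tested genes of glycolysis, 11 rose and 3 fell in DMH1, 12 and 4 in SU5402, and 2 and 3 in notum-1 (1 and 11 on the plain total). Of 83 cytosolic ribosomal genes, 34 rose and 14 fell in DMH1, 14 and 12 in SU5402, and 58 and 0 in notum-1, and on the plain total 42 and 13, 28 and 5, and 19 and 4. Of 30 assembly factors that the rule does not match, 14 fell in DMH1, 16 with SU5402 and 4 in notum-1, and 1, 0 and 9 rose, while on the plain total 0 rose and 9 fell in notum-1. cyc1, which encodes cytochrome c1 of complex III, had 192 ± 8.68 CPM in DMH1, 160.3 ± 24.7 in SU5402 and 280.3 ± 30.5 CPM in WT, and fell in both (log2 fold change -0.55 with SE 0.15, edgeR adjusted p = 0.00916 in DMH1, and log2 fold change -0.81 with SE 0.15, edgeR adjusted p = 0.000561 in SU5402).

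Members were also compared within single cell classes, where shares of classes do not enter. In posterior neuronal cells, 54 fell and 5 rose in DMH1 (21.1% and 22.5% of all genes), 69 fell and 3 rose in SU5402 (19.6% and 22.9% of all genes) and 3 fell and 60 rose in notum-1 (16.3% and 18.6% of all genes), of 90 members tested. In PSM, 50 fell and 3 rose in DMH1 (22.0% and 22.3% of all genes), 68 fell and 3 rose in SU5402 (19.4% and 21.5% of all genes) and 1 fell and 69 rose in notum-1 (16.2% and 19.5% of all genes). In epidermis 1, 34 fell and 6 rose in DMH1 (15.7% and 16.4% of all genes), 52 fell and 3 rose in SU5402 (17.3% and 18.0% of all genes) and 2 fell and 53 rose in notum-1 (14.0% and 15.9% of all genes). The counts of rises in DMH1 and SU5402 include members scarce in WT, tested because of the treated libraries where they were high. In PSM, ndufa4 had 216, 121 and 7 UMIs in DMH1, SU5402 and WT. In the same order cox4i1l had 124, 75 and 0 in posterior neuronal cells and 137, 75 and 1 in epidermis 1. The median of all genes in notum-1 on the plain total was -0.44, -0.56 and -0.46 in posterior neuronal cells, PSM and epidermis 1. On that scale 12 fell and 22 rose in notum-1 (41.8% and 6.31% of all genes) in posterior neuronal cells. In PSM 7 fell and 29 rose in notum-1 (47.3% and 5.35% of all genes), and in epidermis 1 6 fell and 20 rose in notum-1 (36.2% and 5.63% of all genes). Under the common limit on cells 43 of 89 members tested were called in SU5402 in PSM, where 41 fell and 2 rose. Of all genes tested there, 13.4% fell and 12.5% rose. In PSM, SU1 and SU2 held 3 and 14 cells under that limit, fewer than the 30 required. The SU5402 values there thus rest on SU3 and SU4 only, with 51 and 241 cells. In epidermis 1, of 83 members tested under that limit, 17 fell and 2 rose in DMH1 (7.5% and 7.77% of all genes). There 8 fell and 0 rose in SU5402 (6.63% and 7.1% of all genes), and 0 fell and 27 rose in notum-1 (4.29% and 7.15% of all genes), from the 11 libraries that still held 30 such cells, 2 of them SU5402.

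In posterior neuronal cells, cox7a2a had 173 ± 29.2 CPM in DMH1, against 556 ± 64.2 CPM in WT (log2 fold change -1.68 with SE 0.15, edgeR adjusted p = 1.27e-07). cox7c and ndufb11 fell there with log2 fold changes of -1.68 and -1.76 in DMH1, and in SU5402 cox7a2a, atp5pf and ndufb5 fell with -1.63, -1.62 and -1.61. Both cox6b1 and atp5fa1 rose in DMH1, atp5fa1 with 227 ± 9.13 CPM in DMH1, against 174 ± 14 CPM in WT (log2 fold change 0.39 with SE 0.12, edgeR adjusted p = 0.014). In PSM, cox7c, cox7a2a and ndufb11 fell in DMH1 with -1.60, -1.56 and -1.55, and cox7a2a, ndufb11 and atp5l in SU5402 with -1.52, -1.46 and -1.46. atp5fa1 rose in PSM in DMH1 with 0.47, and ndufv1 in SU5402 with 0.35 (edgeR adjusted p = 0.0467). Values for SU5402 in PSM under the common limit on cells rest on SU3 and SU4 only. ndufv1 had -0.05 under the common limit on cells and did not pass without any 1 of 6 libraries (the second SU5402, the third SU5402, the first WT, the second WT, the third WT, the fourth WT), with log2 fold changes of 0.25 to 0.38 and edgeR adjusted p of 0.0611 to 0.172.

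In epidermis 1, atp5fa1, the complex III core protein gene uqcrc2a and the assembly factor ndufaf5 rose in DMH1, the last with 22.1 ± 1.64 CPM in DMH1, against 11.9 ± 2.12 CPM in WT (log2 fold change 0.94 with SE 0.24, edgeR adjusted p = 0.00473). ndufaf5 had 0.35 under the common limit on cells (edgeR adjusted p = 0.646), and uqcrc2a did not pass without any 1 of 7 libraries (the second DMH1, the third DMH1, the fourth DMH1, the first WT, the second WT, the third WT, the fourth WT), with log2 fold changes of 0.41 to 0.52 and edgeR adjusted p of 0.0602 to 0.153. cox7c, ndufb11 and cox7a2a fell there with -1.52, -1.46 and -1.38, and in SU5402 cox7a2a, atp5mc1 and sdhc fell with -1.38, -1.28 and -1.24. In notum-1, atp5mea was the largest rise among members of at least 10 CPM in each of the 3 classes, with 1.92, 2.05 and 2.03 in posterior neuronal cells, PSM and epidermis 1. atp5if1b fell in posterior neuronal cells and PSM, with -0.77 and -0.48, sdhc in posterior neuronal cells and epidermis 1, with -0.55 and -0.55, and atp5mc1 in epidermis 1, with -0.51. Of these calls, atp5if1b in PSM did not pass without any 1 of 7 libraries (the second notum-1, the third notum-1, the fourth notum-1, the first WT, the second WT, the third WT, the fourth WT), with log2 fold changes of -0.51 to -0.42 and edgeR adjusted p of 0.0579 to 0.0959, and sdhc in epidermis 1 without any 1 of 7 libraries (the first notum-1, the third notum-1, the fourth notum-1, the first WT, the second WT, the third WT, the fourth WT), with log2 fold changes of -0.59 to -0.49 and edgeR adjusted p of 0.0559 to 0.126. sdhc in posterior neuronal cells did not pass without the fourth notum-1 library (log2 fold change -0.43, edgeR adjusted p = 0.0644) or without the second WT library (log2 fold change -0.50, edgeR adjusted p = 0.0567), and atp5mc1 without the third WT library (log2 fold change -0.46, edgeR adjusted p = 0.0525) or without the fourth WT library (log2 fold change -0.43, edgeR adjusted p = 0.0668). With the common limit on cells, atp5if1b in PSM had -0.34 (edgeR adjusted p = 0.199), and in epidermis 1 sdhc had -0.50 (edgeR adjusted p = 0.224), atp5mc1 -0.37 (edgeR adjusted p = 0.302) and atp5mea 1.81 (edgeR adjusted p = 0.067). In the same class and cells uqcrc2a in DMH1 had 0.52 (edgeR adjusted p = 0.274) and sdhc in SU5402 -0.88 (edgeR adjusted p = 0.073). Scaled by the plain total, these notum-1 falls were -1.21 and -1.02 for atp5if1b, -0.99 and -1.0 for sdhc and -0.95 for atp5mc1. The rises of atp5mea were then 1.48, 1.53 and 1.57. Whether a gene's change differed between classes was not tested.

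The sum of the 88 subunit genes lay below WT in each of the 21 classes that could be compared in DMH1 and the 20 in SU5402, and, on the TMM scale, above WT in each of the 19 in notum-1. The log2 ratio was between -0.74 in posterior notochord and -0.33 in epidermis 1 for DMH1, and between -0.99 in posterior notochord and -0.64 in epidermis 1 for SU5402. For notum-1 it was between 0.47 in anterior notochord and 0.81 in PSM, while on the plain total it was 0.12 to 0.29, above WT in 10 classes and overlapping it in 9. In all deposited cells, whose highest mitochondrial percent differed by group, the mitochondrial genome was above WT by 0.73 to 1.19 in DMH1 and by 0.64 to 1.12 in SU5402, and the ratio was -0.35 to -0.10 in notum-1, where its libraries overlapped WT in all 19 classes. Without the TMM factor the notum-1 ratio of the mitochondrial genome was -0.81 to -0.48, below WT in 13 classes. Complex II was again the exception in notum-1, with log2 ratios from -0.39 to 0.25 and overlap with WT in 18 of 19 classes, and on the plain total with -0.85 to -0.24, below WT in 11 classes.

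**Figure D5:**
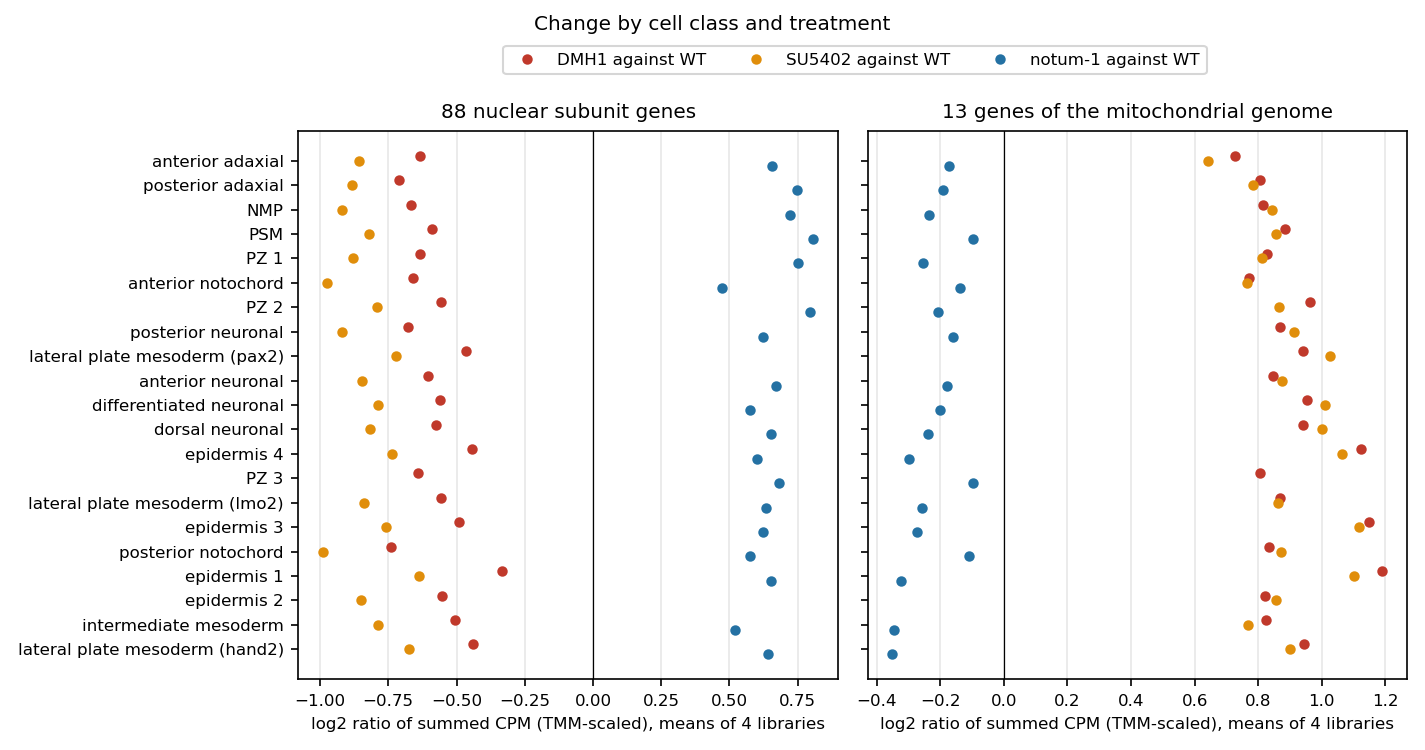
Log2 ratio to WT (x axis) of the summed TMM-scaled CPM of 88 nuclear subunit genes (left) and of the 13 genes of the mitochondrial genome (right) in each cell class (y axis), for DMH1, SU5402 and notum-1. Each point sets the mean of 4 treated libraries against that of 4 WT libraries. On the left DMH1 and SU5402 lie left of 0 and notum-1 right of 0 in every class, and on the right DMH1 and SU5402 lie right of 0.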

How the data were processed

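The authors deposited UMI counts per gene and cell for 130661 cells and a table of each cell's library, treatment and class. Per the submitters' processing notes, Cell Ranger and the build GRCz11 were used, with no version named. The deposited table gives each cell's percent of mitochondrial UMIs, which matched the counts, as did its totals, in every cell. Of the 16 libraries, 4 could be tied to a labelled sample by name and 12 to a group only. Libraries of a group differed beyond counting noise (lowest chi-square per degree of freedom 16.9), so all were kept.

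Counts were summed per library over all cells or per class and tested with edgeR 4.0.16 in R 4.3.3 (TMM, filterByExpr, robust quasi-likelihood), all 16 libraries in 1 fit, with Benjamini-Hochberg adjustment over all genes and a threshold of 0.05. Class comparisons in WT used the 21 classes with at least 30 cells per library and library as a block, and the adaxial value is the mean of 2 classes. Python 3.11.15, pandas 2.3.3 and matplotlib 3.10.9 made the sums and figures. The treatment fit was tested on simulated data of 16399 genes, where it recovered 86% of genes changed by a log2 fold change of 1 and 100.0% of those changed by 2, with 9 false calls. Only genes of at least 10 CPM were changed there, and the fit's added spread per gene was left out. Recovery of scarcer members was thus not simulated, and recovery in the real data may be lower. The members, lists and tests were chosen with earlier results of these data known.

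Members were named by rule: per treatment over all cells, up to 4 higher and 4 lower members, and per class comparison or treatment within a class up to 3 of each, ranked by the size of the log2 fold change, where a member had to pass the test, average 10 CPM or more and have its 4 libraries outside the range of the other group; the 3 highest per complex in WT; the 6 steepest by class; and 18 isoform genes whatever their values. ndufaf6, sdhda, atp5mc3a, ndufa9b, ndufs1, sdhaf1, sdha and sdhb were outside the rule and were named after their values were seen. Alternatives were DESeq2 1.42.0, other scalings and filters, thinning, a common limit on cells, classes held at their WT weight (limma on log2(CPM + 1)), a replicate block and leaving out libraries. A planned comparison with a somite class was not made, since no class of that name was found, and promoter motifs were not searched, since no sequences were at hand. How doublets were treated is not given in the sources used here, and no caller was run.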

Additional observations from a re-analysis of the deposited data

Results flagged for a closer look

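In 10 of 136 groups of 4 libraries, over the 5 complexes and the named members, 1 library stood far from the other 3. Chance flags about 1 in 20 groups. The second notum-1 library was the far one in 6 of them. Its summed level was 10612 CPM, against 7349 to 7815 CPM in the other 3 for complex I, 373.8 CPM, against 260.1 to 277.5 CPM in the other 3 for complex II and 4022 CPM, against 3146 to 3269 CPM in the other 3 for complex III. Among genes it had 309.2 CPM, against 162.4 to 183.9 CPM in the other 3 for ndufb5, 474.5 CPM, against 194.5 to 238 CPM in the other 3 for ndufb9 and 932.2 CPM, against 532.6 to 599.9 CPM in the other 3 for uqcrb. This library had the lowest TMM factor but 1 of the 16 and a median of 9972 UMIs per cell, where the other notum-1 libraries had 4152 to 6298, and the part of either was not tested. In SU5402, the fourth library had 36.19 CPM, against 26.79 to 28.17 CPM in the other 3 for sdhdb and 13.94 CPM, against 9.856 to 10.44 CPM in the other 3 for ndufa4, and the third had 144.9 CPM, against 121.4 to 124.4 CPM in the other 3 for uqcr10. In DMH1 the first library had 130.2 CPM, against 122.1 to 122.7 CPM in the other 3 for uqcr10. In none of the 15 pairs of a complex and a treatment did 2 cell classes lie on opposite sides of WT with separate ranges.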

How the results depend on the processing

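Of the counts of called members and summed levels, 124 values under another setting stayed within 1.5 times the count or 1 SD of the level and 44 did not. On the plain total, 8 members rose in DMH1, 28 rose and 9 fell in notum-1, and 34, 36 and 26 were called in notum-1 in posterior neuronal cells, PSM and epidermis 1. The summed log2 ratios on the plain total were -0.65, -0.56, -0.57, -0.49 and -0.55 for complexes I to V in DMH1, -0.82, -0.70, -0.74 and -0.59 for complexes I to IV in SU5402, and 0.28, -0.37, 0.14, 0.22 and 0.30 in notum-1, so that complex II in notum-1 changed direction. Taking the median log2(CPM + 1) over subunits in place of the sum gave -0.88, -1.0, -0.90 and -0.86 for complexes I, III, IV and V in DMH1 and 0.29 and 1.06 for complexes II and IV in notum-1, and in WT 0.86, 0.79 and 0.86 for the highest against the lowest class of complexes II, IV and V. Giving each class its WT weight in every library (limma on log2(CPM + 1) of the plain total) gave 8 rises in DMH1 and 29 rises and 9 falls in notum-1. Of all genes, 28.5% rose in DMH1 in that setting, and 7.65% rose and 40.7% fell in notum-1. A least mean of 10 CPM left 2 rises in DMH1 and 2 in SU5402, and a fit of only the 8 libraries compared gave 8 rises in DMH1. No share of all genes is at hand for these last settings. The common limit on cells left 43 calls in SU5402 in PSM, 19, 8 and 27 in DMH1, SU5402 and notum-1 in epidermis 1, and, in WT, 6 for PSM against PZ 1, 47 for adaxial cells against PSM and 2 for posterior neuronal cells against NMP. Under that limit the SU5402 values in PSM and epidermis 1 rest on SU3 and SU4 only. The cause of the shifts in this paragraph was not tested.

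Without the replicate block of library, 5 members were called for PSM against PZ 1 and 3 for posterior neuronal cells against NMP, and 76 and 31 for the other class comparisons. Library names of notum-1 and WT share endings, and the deviations of same-named libraries from their group means correlated across genes at 0.236, 0.0348, -0.0811 and 0.214, so the names were not taken as pairs. Against DJ1, DJ2, MG1 and MG2, WNT_DJ1 correlated at 0.236, 0.21, -0.258 and -0.159, and WNT_MG2 at -0.214, -0.197, 0.16 and 0.214. WNT_DJ2 had -0.0449, 0.0348, 0.111 and -0.0906, and WNT_MG1 0.0813, -0.00511, -0.0811 and 0.00685. A grouping by DJ and MG alone was not tested. With the full endings as a replicate block, 56 members rose and 3 fell in notum-1. No paired analysis was possible for DMH1 and SU5402 because their library names share no numbering that the labels tie to WT. Leaving out 1 library at a time, the calls ranged over 12 to 16 for PSM against PZ 1, 9 to 14 for posterior neuronal cells against NMP and 1 to 4 for members that fell in notum-1, and the other 132 such values stayed within 1.5 times. No shares of all genes are at hand for these fits with the block changed or a library left out.

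Of named members, 1105 values under another setting kept their call and direction, 73 lost the call, 14 gained one and 28 turned round. On the plain total cox6b2 in DMH1 had 0.0112, cox4i2 and cox8b in SU5402 0.14 and 0.16, and in notum-1 atp5mc3b had -0.0412, cox6b2 -0.12, ndufab1a -0.22, ndufb5 -0.22, ndufc2 -0.0179, sdhaf4 -0.11 and sdhdb -0.24. With classes at their WT weight cox6b2 in DMH1 had 0.0084, and in notum-1 atp5mc3b had -0.0721, cox6b2 -0.15, cox8a -0.0342, ndufa4l -0.0030, ndufab1a -0.27, ndufb5 -0.28, ndufc2 -0.0671, sdhaf4 -0.13, sdhdb -0.32 and uqcr10 -0.0476. cox4i1 in DMH1 had -0.0197 with DESeq2, -0.0048 after thinning to the smallest total, -0.0865 under the common limit and -0.0304 in the fit of 8 libraries. Under the common limit cox8b in SU5402 had 0.63 and ndufv1 in SU5402 in PSM -0.0506, and without the first and second SU5402 libraries cox8b had 0.29. Leaving out 1 library at a time, cox4i1 in DMH1 ranged over -0.0447 to 0.0449, cox4i2 and cox8b in SU5402 over -0.33 to 0.0897 and -0.27 to 0.0716, and in notum-1 ndufab1a over -0.0558 to 0.30, ndufb5 over -0.0676 to 0.26 and sdhdb over -0.0363 to 0.23.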
